A study of Sus scrofa with 48 samples.

Results

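MCM2, RRM2, TOP2A, CCNB1 and BIRC5, 5 genes of the cell division machinery, were followed through a 3-day fast in the liver and fat of young pigs. They were taken by symbol: every probe set annotated to 1 of these 5 genes was used, which gave 7 of the 23999 probe sets tested, 3 of them for MCM2 and 1 for each of the others. All 7 carry the same symbol in the RefSeq gene table of the pig. The samples were 48 Affymetrix porcine arrays, 1 from liver and 1 from fat of each of 24 Yorkshire gilts, 6 months old and from a line bred for low residual feed intake. Of the gilts 12 were homozygous for the wildtype D298 form of the melanocortin 4 receptor (MC4R), which acts in the brain on appetite, and 12 for its N298 form. Within each genotype 6 gilts had feed freely available and 6 were fasted for 3 days, which with the 2 tissues makes 8 groups of 6 arrays. The labels do not name the fat depot.

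A cell that divides first copies its DNA, then separates the copies, and most genes that serve these steps are transcribed only in cycling cells. MCM2 is a subunit of the helicase that is loaded at replication origins, and RRM2 is the small subunit of ribonucleotide reductase, which makes the deoxynucleotides for the new strands. TOP2A is the topoisomerase that untangles the sister chromatids, CCNB1 is the cyclin that activates CDK1 for entry into mitosis, and BIRC5 (survivin) is a part of the chromosomal passenger complex and a member of the inhibitor of apoptosis family. In adult fat the mature adipocytes do not divide, and cycling cells are found among precursors, vascular cells and immune cells. Hepatocytes of an adult liver are mostly at rest but can re-enter the cycle.

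Signals are the deposited intensities, scaled to a common trimmed mean, with array medians of 122.1 to 148.7 for liver and 158.7 to 191.8 for fat. Defining markers matched the labels: ALB, the albumin gene, gave 35472 to 54548 in liver, and ADIPOQ, the adiponectin gene of adipocytes, gave 15099 to 33788 in fat against 24.3 to 128 in liver. In fat, however, 4 of the 24 arrays stood apart in 13 hepatocyte markers, with mean log2 signals of 9.63 to 9.95 against 5.37 to 6.76 on the other 20. They were D298 fed replicate 4, N298 fed replicates 3 and 6, and D298 fasted replicate 5, that is, 3 fed and 1 fasted. Skeletal muscle markers also varied widely over fat arrays, with list means of 3.90 to 12.5 in fed and 4.38 to 13.1 in fasted gilts. The fasting responses of the 5 genes and of the other division genes in fat are therefore also given without those 4 arrays. Over all fat arrays, each of the 7 probe sets had a mean log2 signal below that of the median probe set of the tissue, whereas TOP2A, BIRC5 and RRM2 lay above it in liver. Precision is limited by the 6 gilts per group, and p-values measure the spread between gilts.

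The first comparison asked how the 5 genes respond to fasting in fat. All 5 fell, by the brightest probe set of each: TOP2A was 4.02-fold lower in fasted gilts, RRM2 3.67-fold, CCNB1 3.52-fold, BIRC5 1.85-fold and MCM2 1.44-fold. In this comparison 10.1% of all probe sets were called lower, a call being an adjusted p under 0.05 in limma with Benjamini-Hochberg adjustment over all 23999 probe sets. Of all genes, each taken by its brightest probe set as the 5 are here, 18.9% were called lower. The 5 genes were chosen with earlier results of these data known, so setting them beside these shares is no test. From RNA of whole tissue, fewer dividing cells and less RNA per cell cannot be told apart.

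**Figure D1:**
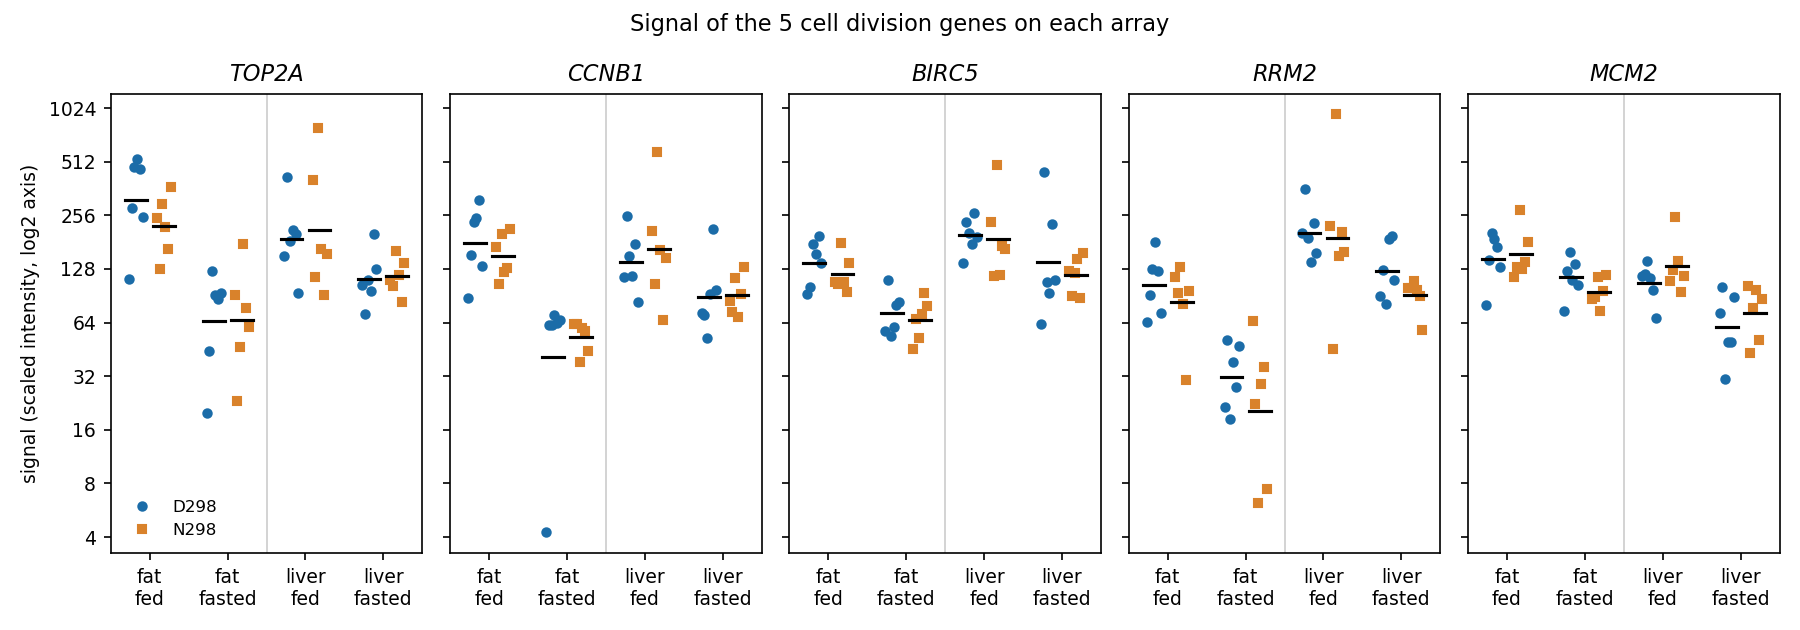
Signal of the brightest probe set of each gene (scaled intensity, log2 axis) on all 48 arrays, by tissue and feeding state; circles are D298 gilts, squares N298 gilts, and bars the means of log2 signal of 6 arrays. In fat the 12 fasted arrays of CCNB1 all lie below the 12 fed ones, while in liver fed and fasted arrays overlap for every gene.

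Among the genes of DNA synthesis, RRM2 ranged in the fat of fed D298 gilts from 64.1 to 182 with a median of 109, and in fasted ones from 18.4 to 51.1 with a median of 33.2. In N298 gilts it ranged from 30.6 to 131 with a median of 94.7 when fed, and from 6.22 to 65.1 with a median of 25.7 when fasted. The D298 groups did not overlap, as was so in this direction for 2.30% of all probe sets, the N298 groups did, and 7 of the 12 fasted arrays lay below the lowest fed array. The log2 fold change of RRM2 was -1.88 ± 0.35 (SE, n = 12 fasted and 12 fed; adjusted p = 0.000438). With 32 added to each signal before log2, which shrinks the folds of dim signals, it was -1.07 and still passed. MCM2, by its brightest probe set (Ssc.1408.2.S1_at), moved less and its groups overlapped: it ranged from 79.9 to 203 (median 157) in fed and from 74.6 to 159 (median 117) in fasted D298 gilts. In N298 gilts it ranged from 115 to 274 (median 136) when fed and from 74.4 to 118 (median 92.5) when fasted. Its log2 fold change was -0.52 ± 0.13 (adjusted p = 0.00445), and without the 4 fat arrays high in hepatocyte markers it was -0.41 ± 0.14 and did not pass (adjusted p = 0.0573).

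The other MCM2 probe sets did not show this fall. Ssc.1408.1.A1_at gave a log2 difference of 0.68 ± 0.35 (adjusted p = 0.174) and Ssc.21350.1.S1_at one of -0.06 ± 0.22 (adjusted p = 0.888). Their signals in fat ran from 5.98 to 78.2 and from 43.2 to 154, respectively. Across the 24 fat arrays the 3 MCM2 probe sets were only weakly related after group means were removed, with Pearson r between 0.11 and 0.33 for the 3 pairs, none of which passed (permutation test, adjusted p of 0.508 to 0.680). The MCM2 result in fat thus rests on 1 probe set of 3.

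TOP2A, which acts from replication to chromatid separation, showed the largest fold change of the 5 in fat. Its signals in D298 gilts ran from 112 to 529 (median 373) when fed and from 19.8 to 124 (median 88.8) when fasted. In N298 gilts they ran from 128 to 369.7 (median 234) when fed and from 23.2 to 177 (median 68.8) when fasted. Of the 12 fasted arrays 10 lay below the lowest fed array. The log2 fold change was -2.01 ± 0.27, with a 95% interval of -2.58 to -1.44 and an adjusted p of 1.32e-05.

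CCNB1 separated the feeding states in fat without overlap, as did 1.11% of all probe sets in that direction. It ran from 87.9 to 311 (median 195) in fed and from 4.25 to 70.9 (median 63.0) in fasted D298 gilts. In N298 gilts it ran from 105 to 216 (median 149.8) when fed and from 38.2 to 62.9 (median 58.4) when fasted. The value of 4.25, on fasted D298 replicate 1, stood far below the other 5 of its group, which lay between 62.1 and 70.9. The log2 fold change was -1.82 ± 0.33 (adjusted p = 0.000283).

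BIRC5 ran in fat from 92.5 to 195 (median 147) in fed and from 53.9 to 112 (median 70.4) in fasted D298 gilts. In N298 gilts it ran from 95.1 to 178 (median 109) when fed and from 45.5 to 94.2 (median 69.2) when fasted. The N298 groups did not overlap, as was so in this direction for 3.55% of all probe sets, and 10 of all 12 fasted arrays lay below the lowest fed array. The log2 fold change was -0.89 ± 0.17 (adjusted p = 0.000366). BIRC6, the 1 member of the list of other inhibitors of apoptosis that was measured, was higher in fasted fat, by 0.26 ± 0.07 (adjusted p = 0.00880).

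**Figure D2:**
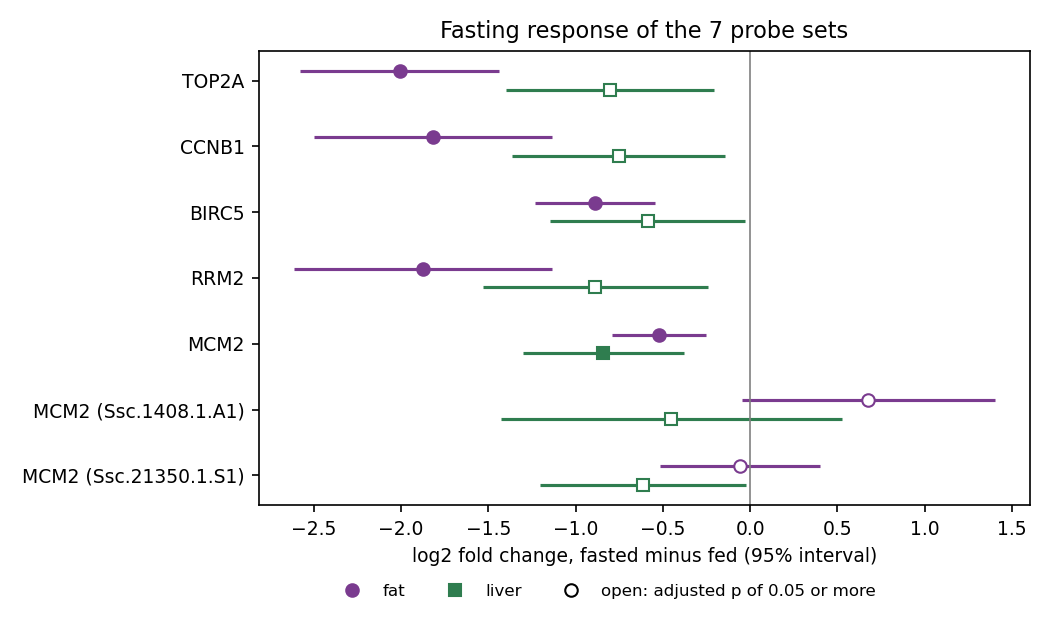
Log2 fold change of each probe set, fasted minus fed, with its 95% interval from limma in fat (circles) and liver (squares); filled symbols passed at an adjusted p under 0.05 and the rows without a probe set name show the brightest probe set. In fat TOP2A, CCNB1, BIRC5, RRM2 and 1 MCM2 probe set passed, and in liver that MCM2 probe set alone.

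Without the 4 fat arrays high in hepatocyte markers, TOP2A, CCNB1, BIRC5 and RRM2 still passed, with log2 fold changes of -1.93, -1.75, -0.76 and -1.55. In that fit 7.91% of probe sets, and 14.6% of genes by their brightest probe set, were called lower. With each array's hepatocyte and muscle marker means as covariates all 5 genes passed, and MCM2 was at -0.49 (adjusted p = 0.00520). The marker counts that follow are for all fat arrays, where 18.9% of all genes were called lower and 15.3% higher. Endothelial markers moved with feeding in fat: 6 of 10 were higher and 0 lower in fasted gilts, and their list mean ran from 9.19 to 9.91 in fed and from 9.70 to 10.5 in fasted gilts on the log2 scale. Of the adipocyte markers 2 of 7 were lower and 0 higher (list means 12.0 to 12.5 fed and 11.5 to 12.2 fasted). Of 8 adipose stromal and preadipocyte markers 2 were lower and 3 higher (10.7 to 11.4 fed, 10.6 to 11.4 fasted). The 8 macrophage markers (7.57 to 10.1 fed, 7.51 to 9.36 fasted) and the 8 lymphocyte markers (5.34 to 6.73 fed, 5.73 to 6.58 fasted) had 0 called. The hepatocyte and erythroid lists each had 1 member called higher, of 13 and 3, and the muscle and keratinocyte lists 0, of 10 and 2. No marker was listed at 0. The part of the endothelial, adipocyte and stromal markers in the fall of the 5 genes was not tested. Ratios of 3′ to 5′ control probe sets, a measure of RNA integrity, gave no passing difference between fed and fasted arrays in either tissue (6 permutation tests, adjusted p of 0.517 to 0.928).

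The other genes of the cycle were read by role, from lists of genes that do not include the 5. These lists too were chosen with earlier results of these data known, so their counts are a description. In fat 18.9% of 6765 genes were called lower and 15.3% higher, and the median log2 fold change over them was 0.01. Genes of the spindle, kinetochore and cytokinesis had 15 of 21 measured members lower and 0 higher, with a median of -0.94. Among them were RACGAP1 (-1.47 ± 0.19), needed for cytokinesis, DLGAP5 (-1.51 ± 0.27), a spindle protein, NUF2 (-1.06 ± 0.18) of the kinetochore and MAD2L1 (-0.71 ± 0.13) of the spindle checkpoint. Without the 4 arrays high in hepatocyte markers, where 14.6% of all genes were called lower and 11.5% higher, 9 of the 21 were lower, and the median was -0.78.

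Genes that copy DNA moved less. Of 29 genes of replication licensing and the fork 9 were lower and 0 higher, with a median of -0.23, where 18.9% of all genes were called lower. RPA3, of the single-strand binding protein, was at -0.49 ± 0.08, the sliding clamp PCNA at -0.30 ± 0.07, POLD2 of DNA polymerase delta at -0.37 ± 0.11 and ORC1 of the origin recognition complex at -0.93 ± 0.28. Without the 4 arrays the count was 2 of 29 (median -0.20), a smaller share than the 14.6% of all genes called lower in that fit. Neither ORC1 nor POLD2 then passed, though their values were close to those with all arrays (-0.90 and -0.37, adjusted p = 0.0912 and 0.0869 in limma). Leaving out 1 replicate number gave 2 to 8 of the 29, with the fewest without replicate 5 (2), 3 (3) and 6 (4). The helicase partners of MCM2 did not pass, with MCM3 at -0.14, MCM4 at -0.42 and MCM5 at -0.43; these 3 were chosen for naming after their values were seen. Of 7 genes of deoxynucleotide supply 3 were lower in fat: NME1 (-1.32 ± 0.11), a nucleoside diphosphate kinase, TYMS (-1.15 ± 0.38), the thymidylate synthase, and RRM1 (-0.40 ± 0.13), the large subunit that pairs with RRM2. SAMHD1, which breaks deoxynucleotides down, was higher (0.39 ± 0.09). Without the 4 arrays NME1 alone of the lower 3 passed, as it did without replicate 3 or 4.

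Of 12 cyclins, cyclin-dependent kinases and their partners, 4 were lower in fasted fat and 0 higher, where 18.9% of all genes were called lower. They were CCNB2 (-1.75 ± 0.54), the other mitotic B-type cyclin, PKMYT1 (-1.30 ± 0.39), which inhibits CDK1, and the kinase-binding proteins CKS2 (-1.16 ± 0.15) and CKS1B (-0.44 ± 0.08). Without the 4 arrays 2 passed, close to the 14.6% of all genes called lower in that fit, and CCNB2 did not (-1.60, adjusted p = 0.0915 in limma). Without replicate 2 or 4 also 2 passed. Of 8 genes of chromosome structure 3 were lower: the histone gene H2AFZ (-0.49 ± 0.06), the condensin subunit NCAPD3 (-0.32 ± 0.08) and the nuclear lamina gene LMNB1 (-0.62 ± 0.17). Their list median was 0.02. Without the 4 arrays 2 of the 8 were lower, and LMNB1 did not pass (-0.57, adjusted p = 0.0555 in limma). None of 7 transcription factors of the cell cycle passed in fat (0 lower and 0 higher), and their list median was -0.007, with 4 of the 7 below 0. FOXM1, an activator of mitotic genes, is named here outside the rule for naming genes. It was at -0.99 ± 0.37 and did not pass (adjusted p = 0.0539 in limma).

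Genes that restrain division went the other way more often: 6 of 16 were higher and 2 lower in fasted fat, with a median of 0.27. Over all genes 15.3% were called higher and 18.9% lower. Without the 4 arrays 5 were higher and 2 lower, where 11.5% of all genes were called higher and 14.6% lower. The higher ones included GADD45B (0.90 ± 0.13), a stress-induced growth arrest gene, MXI1 (0.70 ± 0.07), an antagonist of MYC, CDKN1B (0.59 ± 0.09), an inhibitor of cyclin-dependent kinases, and BTG1 (0.33 ± 0.06), an antiproliferative gene. CDKN1A, a kinase inhibitor induced by p53 among others, was lower (-0.96 ± 0.15), as was CDKN3 (-0.62 ± 0.12), a phosphatase of cyclin-dependent kinases.

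**Figure D3:**
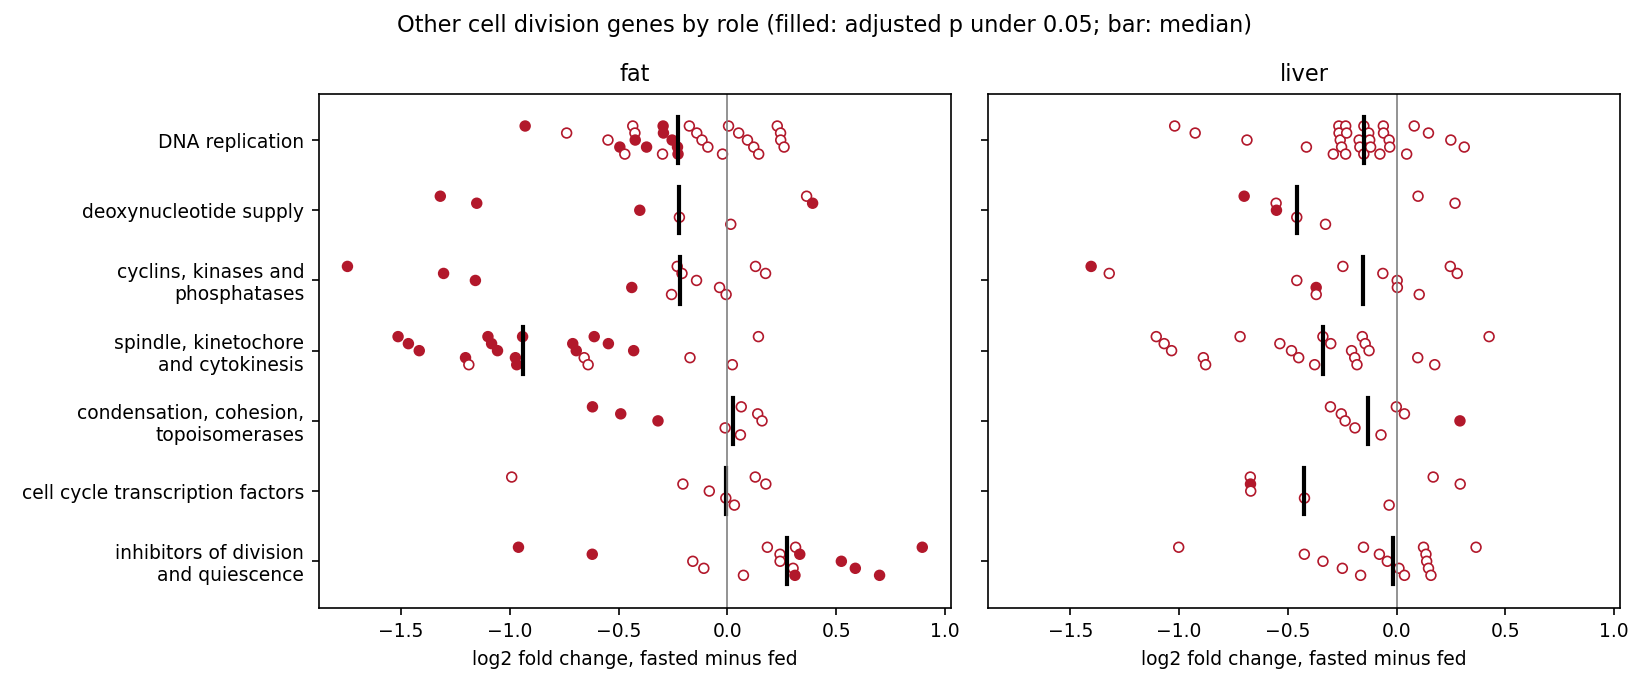
Log2 fold change (fasted minus fed) of the other cell division genes, 1 point per gene by its brightest probe set, grouped by role, in fat (left) and liver (right); filled points passed at an adjusted p under 0.05 and bars are list medians. In fat 15 of 21 genes of the spindle, kinetochore and cytokinesis are filled, and in liver 0 of 21. Of these 21, 19 lie below 0 in fat and 18 in liver.

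In liver, 2.20% of probe sets were called lower in fasted gilts, and 3.10% of genes lower and 4.09% higher. Only MCM2 passed there, with a log2 fold change of -0.84 ± 0.22 (adjusted p = 0.0307). Its liver signals ran from 68.3 to 142 (median 116) in fed and from 31.0 to 101 (median 61.1) in fasted D298 gilts. In N298 gilts they ran from 95.2 to 250.0 (median 122) when fed and from 42.9 to 102 (median 81.9) when fasted, so fed and fasted arrays overlapped. The call was lost without N298 fed replicate 3 (-0.73, adjusted p = 0.0618) and under quantile normalization (-0.74, adjusted p = 0.0546). The other MCM2 probe sets gave -0.45 ± 0.47 (Ssc.1408.1.A1_at, adjusted p = 0.696) and -0.61 ± 0.28 (Ssc.21350.1.S1_at, adjusted p = 0.274).

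RRM2, TOP2A, CCNB1 and BIRC5 were lower on average in fasted liver but did not pass. RRM2 gave a log2 difference of -0.89 ± 0.31 (adjusted p = 0.119), with 139 to 359 (median 198) in fed against 81.9 to 196 (median 118) in fasted D298 gilts, and 45.3 to 944 (median 182) against 58.3 to 109.6 (median 98.4) in N298 gilts. TOP2A gave -0.80 ± 0.29 (adjusted p = 0.129), with 94.0 to 419 (median 192) against 71.4 to 201 (median 107) in D298 and 91.6 to 787 (median 161) against 83.2 to 162 (median 115) in N298 gilts. CCNB1 gave -0.75 ± 0.29 (adjusted p = 0.176), with 83.6 to 255 (median 134) against 52.1 to 214 (median 82.3) in D298 and 66.1 to 583 (median 155) against 68.8 to 131 (median 88.9) in N298 gilts. Fed and fasted arrays overlapped for each of these 3 genes. BIRC5 gave -0.59 ± 0.27 (adjusted p = 0.268), with 137 to 265 (median 198) against 62.4 to 450.2 (median 109.8) in D298 and 117 to 488 (median 168) against 88.5 to 157 (median 123) in N298 gilts. All 5 highest fed values in N298 liver came from replicate 3. No member separated the feeding states of liver without overlap, as 0.254% of all probe sets did in this direction.

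The other division genes in liver showed few calls. The lists of replication (29 genes), of the spindle, kinetochore and cytokinesis (21 genes) and of inhibitors (16 genes) had 0 called in either direction, with medians of -0.15, -0.34 and -0.02 against 0.00 over all genes. Values below 0 were seen in liver for 24, 18 and 8 genes of these lists, and in fat for 20, 19 and 4. Of the nucleotide list 2 of 7 were lower: RRM2B (-0.70 ± 0.13), the alternative small subunit of ribonucleotide reductase, and NME1 (-0.55 ± 0.13). Of the cyclin and kinase list 2 of 12 were lower, CDK2 (-0.37 ± 0.09) and CCNH (-1.40 ± 0.39), the partner of CDK7. The CCNH call was lost under 10 of 13 alternatives and that of CDK2 under 4 of 14, and in 4 of the 6 fits without 1 replicate number the list had 0 lower. MYC, a transcription factor of growth, was lower (-0.67 ± 0.18), as 1 of 7 of its list, and TOP2B, the topoisomerase that is also present in resting cells, was higher (0.29 ± 0.08), as 1 of 8 of its list. These calls of MYC and TOP2B were each lost under 6 of 14 alternatives, and that of NME1 under 5 of 14.

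Whether fat and liver differed in their response was tested in the 48-array model, in which 16.1% of probe sets passed in either direction. Of the 5 genes TOP2A passed: it changed by 1.21 ± 0.42 more on the log2 scale in fat, a difference of -1.21 (95% interval -2.06 to -0.35, adjusted p = 0.0431). That call was lost without the 4 fat arrays high in hepatocyte markers (-1.04, adjusted p = 0.130), without fasted D298 replicate 1 of fat (-1.03, adjusted p = 0.0733), and in 5 of the 6 fits that each leave out 1 replicate number. CCNB1 gave -1.06 (-1.94 to -0.19, adjusted p = 0.0885) and RRM2 -0.99 (-1.88 to -0.09, adjusted p = 0.132). Neither passed, though both did without N298 fed replicate 3 of liver (-1.24 and -1.21, adjusted p = 0.0318 and 0.0341). With 32 added before log2 the values shrank to -0.64 and -0.32, and neither passed. BIRC5 gave -0.30 (-0.90 to 0.30, adjusted p = 0.559) and MCM2 0.32 (-0.20 to 0.84, adjusted p = 0.456).

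The levels of each gene over the 4 combinations of tissue and feeding were ordered by mean log2 signal (± SD, n = 12). TOP2A was at 8.05 ± 0.73 in fed fat, 7.64 ± 0.93 in fed liver, 6.84 ± 0.40 in fasted liver and 6.04 ± 0.94 in fasted fat. CCNB1 followed the same order, with 7.37 ± 0.55, 7.25 ± 0.82, 6.50 ± 0.53 and 5.55 ± 1.12, but fed fat lay below fed liver for CCNB1 after centring arrays on their medians (-0.17) or quantile normalization (-0.14). In that order only the last step, from fasted liver to fasted fat, passed, at -0.80 (adjusted p = 0.0172) for TOP2A and -0.95 (adjusted p = 0.00587) for CCNB1 in limma. The TOP2A step was lost without fasted D298 replicate 1 of fat (-0.63, adjusted p = 0.0533) and without replicate 2 (-0.68, adjusted p = 0.0571), and was -1.23 after median-centring, while that of CCNB1 was -0.62 without the same array and passed. For RRM2 the order was fed liver at 7.62 ± 1.002, fasted liver at 6.73 ± 0.48, fed fat at 6.54 ± 0.65 and fasted fat at 4.67 ± 1.04. BIRC5 was at 7.59 ± 0.57 in fed liver, at 7.004 ± 0.74 in fasted liver, at 7.003 ± 0.38 in fed fat and at 6.11 ± 0.38 in fasted fat. Fed fat was below fed liver for RRM2 (-1.08, adjusted p = 0.00261) and BIRC5 (-0.59, adjusted p = 0.0139), and fasted fat below fasted liver (-2.07 and -0.89, adjusted p = 1.29e-07 and 0.000243). Fasted liver and fed fat, the neighbours in the middle, were not compared by a test and lay within their SDs.

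MCM2 had a higher mean in fat than in liver in either feeding state, with 7.23 ± 0.45 in fed fat, 6.90 ± 0.44 in fed liver, 6.71 ± 0.34 in fasted fat and 6.05 ± 0.57 in fasted liver. Between fed fat and fed liver the difference of 0.34 (95% interval -0.03 to 0.70) did not pass (adjusted p = 0.108). It did pass without fed D298 replicate 1 of fat (0.42, adjusted p = 0.0393), without fed N298 replicate 3 of liver (0.42, adjusted p = 0.0418) and without replicate 1 (0.45, adjusted p = 0.0451), but it was 0.046 after median-centring. In fasted gilts MCM2 was 0.66 higher in fat (adjusted p = 0.00152), but this was 0.22 after centring arrays on their medians and 0.21 after quantile normalization, and neither passed (adjusted p = 0.285 and 0.307). The other MCM2 probe sets did the same (Ssc.1408.1.A1_at 0.997, Ssc.21350.1.S1_at 0.63, both passing only with the deposited scaling among these 3), and their calls were lost in 4 and 2 of the 6 fits without 1 replicate number. Between tissues 22.1% of probe sets were lower and 40.2% higher in fat of fed gilts, and 22.1% lower and 44.3% higher in fat of fasted gilts. Over all probe sets the median difference of fat from liver was 0.21 in fed and 0.32 in fasted gilts, and the higher median signal of fat arrays moves with the latter shares.

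Genotype made no detectable difference to any of the 7 probe sets. The test of N298 against D298 called 0 of 23999 probe sets (0%) in fat and 0 (0%) in liver in limma, where 1321 and 1212 had an unadjusted p under 0.05. For the 5 genes the genotype difference ran from -0.48 (RRM2) to 0.07 (CCNB1) in fat and from -0.28 (RRM2) to 0.28 (MCM2) in liver. The intervals were wide, for TOP2A in fat from -0.81 to 0.33. The interaction of genotype and fasting called 0 probe sets (0%) in fat and 0 (0%) in liver as well, with 1368 and 1390 at an unadjusted p under 0.05. Within D298 gilts TOP2A, CCNB1, BIRC5 and RRM2 each fell in fat, with log2 fold changes of -2.25, -2.12, -0.94 and -1.71, where 6.08% of probe sets were called lower. Within N298 gilts the values were -1.77, -1.52, -0.84 and -2.04, where 6.43% were called lower. MCM2 passed in N298 gilts (-0.69, adjusted p = 0.0113) and not in D298 gilts (-0.35, adjusted p = 0.240), and its interaction did not pass (-0.35, 95% interval -0.88 to 0.19). In liver none of the 5 passed within a genotype, where 0.871% of probe sets were called lower in D298 and 0.704% in N298 gilts.

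The last question was whether the genes vary together from gilt to gilt once the group means are taken out. Of the 10 pairs of the 5 genes, 5 passed in fat and 4 in liver (2-sided permutation within groups, 100000 resamples, Benjamini-Hochberg over the 20 pairs), and all 20 correlations were positive. Pearson r ran from 0.05 to 0.70 in fat, with a median of 0.42, and from 0.28 to 0.88 in liver, with a median of 0.48. The members of a pair share an array, and so its scaling and labelling. Without the 4 fat arrays high in hepatocyte markers 2 pairs passed in fat, with a median r of 0.38, and, with p-values adjusted anew, 2 in liver. Without N298 fed replicate 3 of liver 1 pair passed in liver and the median fell from 0.48 to 0.29.

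With all arrays, TOP2A and CCNB1 were the most closely related pair in both tissues. In fat their r was 0.70 over 24 arrays (Spearman's rho 0.69; permutation p = 0.00017, adjusted 0.0017), and 0.75 without the 2 arrays farthest from the median of TOP2A. Here and below, values without the farthest 2 keep the group means of all arrays. With means refitted without fasted D298 replicate 1 of fat, the highest r of any pair in fat was 0.65. For TOP2A with CCNB1, leaving out 1 replicate number or array, with means refitted, gave 0.50 to 0.86 in fat. The lowest value came without replicate 1, where the pair did not pass and BIRC5 with RRM2 was highest (0.60). In liver r was 0.88 (rho 0.77; permutation p = 1e-05, the smallest the resamples can give, adjusted 0.0002) and 0.79 without the farthest 2. At the other end, RRM2 and MCM2 gave an r of 0.05 in fat and 0.28 in liver, and neither passed (adjusted p = 0.812 and 0.221, permutation).

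**Figure D4:**
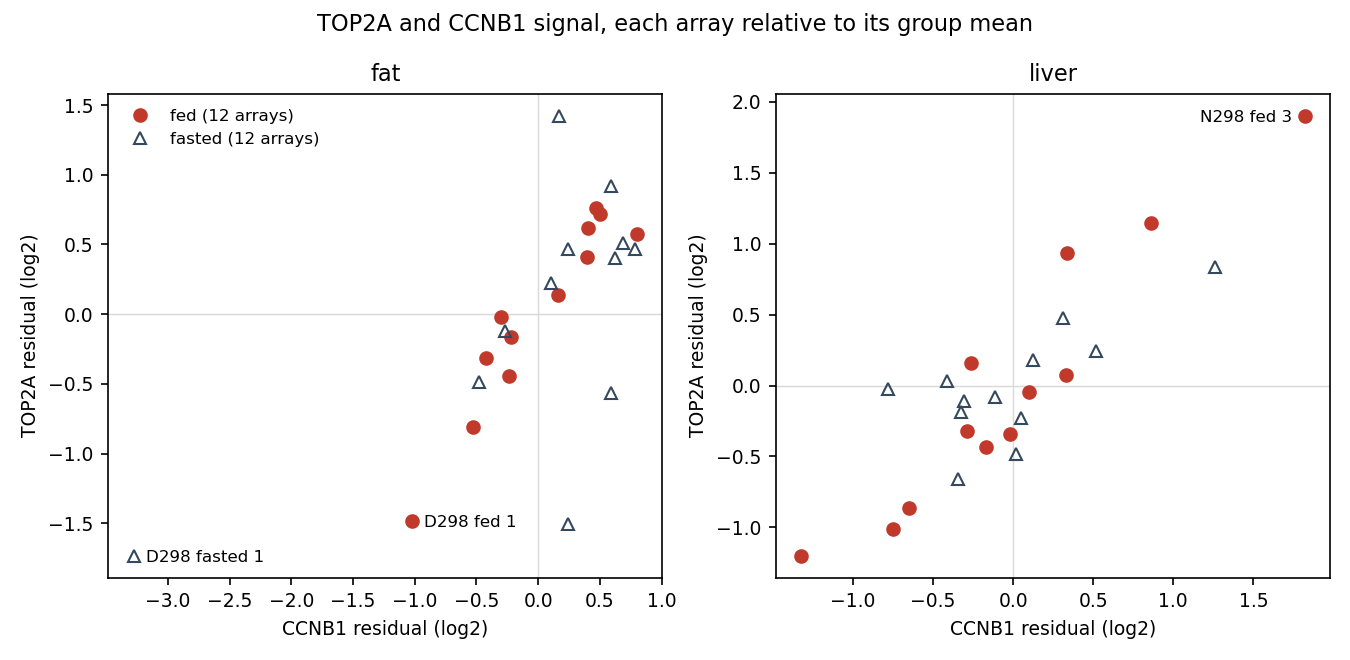
Log2 signal of TOP2A against CCNB1 on each of 24 arrays per tissue, as the difference from the mean of the array's own group; filled circles are fed and open triangles fasted gilts. The 3 labelled arrays lie at the ends of the range, and r is 0.70 in fat and 0.88 in liver with all arrays kept.

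The pairs were then read within each feeding state. Over the 12 fed arrays 9 of 10 pairs passed in fat, with a median r of 0.79, and 7 of 10 in liver, with a median of 0.76. Over the 12 fasted arrays 0 passed in either tissue, with medians of 0.27 and 0.21, although TOP2A and CCNB1 still gave 0.63 and 0.71. In fat, fasted D298 replicate 1 was the lowest fasted array for both genes, with residuals of -1.73 (TOP2A) and -3.28 (CCNB1). In liver, fasted D298 replicate 5 was the highest for both, with 0.84 and 1.26. The fasted values of this pair were not read without those arrays. The difference between fed and fasted arrays was not tested, and 1 array in each tissue weighed heavily on the fed values. The fat array of fed D298 replicate 1 was the lowest of its group for all 5 genes, and the liver array of fed N298 replicate 3 the highest of its group for all 5. Without these 2 arrays 3 pairs passed in fat, with a median r of 0.65, and 1 in liver, with a median of 0.47. TOP2A with CCNB1 then remained at 0.92 in fat and 0.90 in liver.

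**Figure D5:**
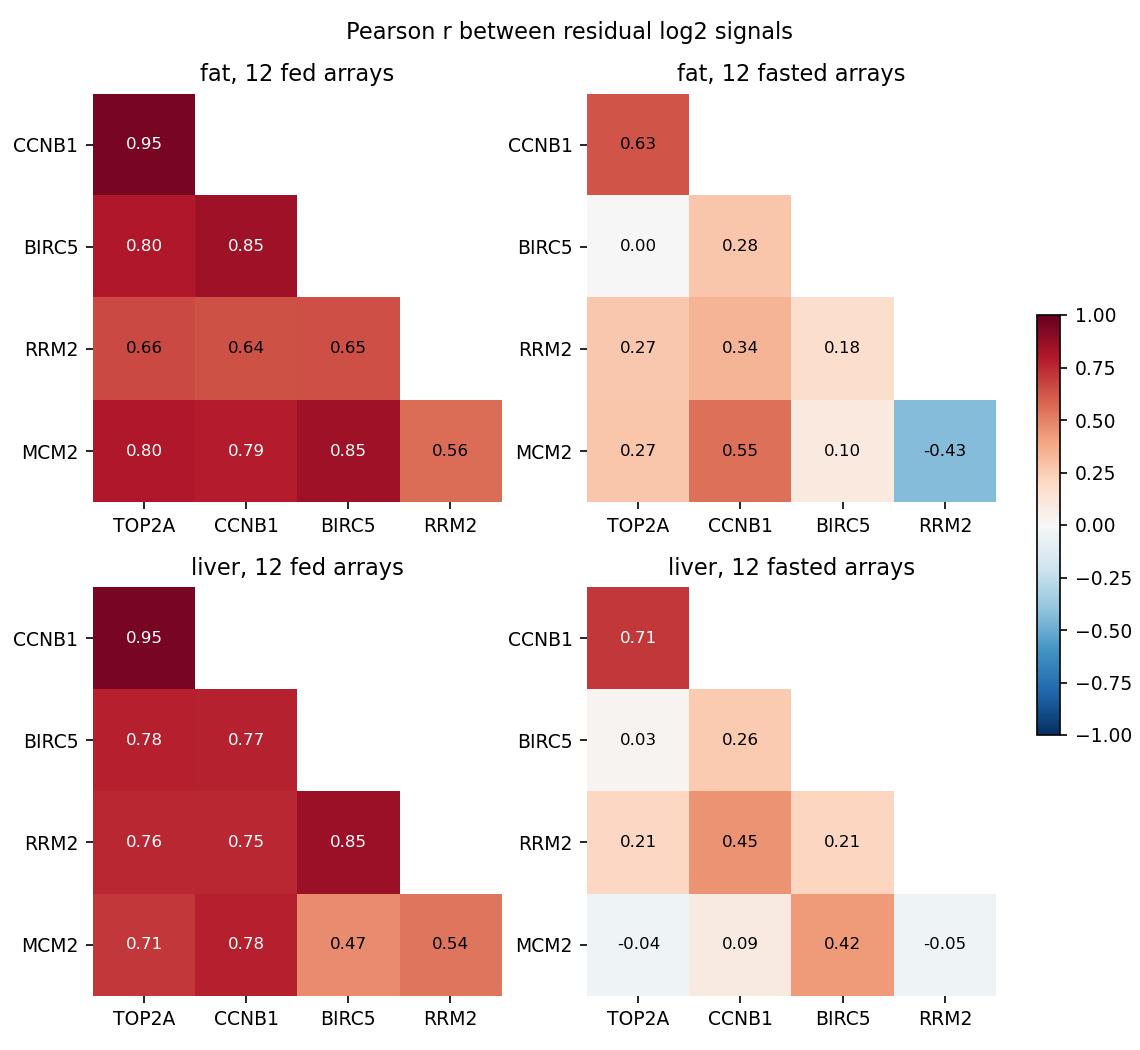
Pearson r between the residual log2 signals of each pair of genes, in fat (top) and liver (bottom), over the 12 fed (left) and the 12 fasted (right) arrays. Values for fed arrays run from 0.56 to 0.95 in fat and from 0.47 to 0.95 in liver; those for fasted arrays run from -0.43 to 0.63 and from -0.05 to 0.71.

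A gilt's fat and liver were compared for each gene over the 24 gilts, with arrays joined by group and replicate number. That the number links liver and fat of the same gilt was assumed, as the labels do not state it. Among the 6 fat arrays of their group, 18 of 24 liver arrays correlated best with the one of their own number. BIRC5 gave an r of 0.56 (permutation p = 0.00489, adjusted over 5 genes 0.0244), but by rank its rho of 0.42 did not pass (adjusted p = 0.226, permutation), and r was 0.43 without the farthest 2 gilts. TOP2A gave 0.26, CCNB1 0.21, RRM2 0.15 and MCM2 0.09, and none passed.

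The genes most like the 5 over the arrays were found by the correlation of their residuals with the mean of the members' standardised residuals, among genes with a mean signal above the median probe set. Dimmer genes, as all 5 members are in fat, could not be listed. Of the spindle, kinetochore and cytokinesis genes 4 were bright enough in fat and 6 in liver, and RACGAP1 was too dim in fat. In fat, over 24 arrays and 4822 genes, these were STAT5A (r = 0.80), MPDZ (0.77), DECR2 (0.75), STMN1 (0.74), ECSIT (0.72), LOC100524239 (0.69), C2H19orf60 (0.69), FEN1 (0.68), GRHPR (0.67) and PARL (0.67). The median r of all genes there was 0.00 and the 99th percentile 0.58. In liver, over 24 arrays and 4993 genes, they were PCLAF (0.92), RACGAP1 (0.86), HMGB2 (0.82), STMN1 (0.81) and DNMT1 (0.81), with a 99th percentile of 0.55. The liver list was not read without N298 fed replicate 3, the array highest in its group for all 5 members. STMN1, which encodes the microtubule regulator stathmin, was the only gene on both lists, which held 10 and 5 genes; in fasted fat it was lower (-0.43 ± 0.11, adjusted p = 0.00477), and in liver it gave -0.21 ± 0.20 (adjusted p = 0.676). PCLAF, a partner of the sliding clamp, gave -0.71 ± 0.28 in fasted liver and did not pass (adjusted p = 0.176).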

How the data were processed

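RNA of both tissues was purified on columns with DNase and labelled with biotin, per the labels' protocols. Values are deposited as linear signal intensities, 1 for each probe set on each array, with none at 0; the affy package and MAS5 are named in the submitters' processing notes, and versions and filters are not given in the sources used here. Leaving out 2% of values at each end, the mean is 500 on every array. Log2 was taken with nothing added. Of 24123 probe sets 124 controls were left out, and no filter on dim signal was set. Of the rest, 10069 had a single symbol in the annotation, 198 had several and 13732 had none. A gene is represented by its brightest probe set (6765 genes).

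Within a tissue, lmFit and eBayes (with trend) of limma 3.58.1, under R 4.3.3, fitted the 4 groups plus 6 block levels for the replicate number, because the design text speaks of blocks. In the 48-array model gilts entered as random blocks, with a correlation of 0.0841 within a gilt. Liver and fat arrays of the same group and number were assumed to come from the same gilt. Tests were 2-sided, with Benjamini-Hochberg adjustment over 23999 probe sets and a threshold of 0.05. Correlations used residuals from group means and permutations within groups (NumPy 2.4.6, SciPy 1.17.1). Python 3.11.15 with pandas 2.3.3 made the tables and Matplotlib 3.10.9 the figures. The models were tested on simulated data. Every member probe set is named; so are, from each list, the up to 4 called genes of smallest p in the list's main direction and 2 against it, besides exceptions stated in the text. The members and lists were chosen with earlier results of these data known. Alternatives were leaving out the block or making it random, median-centring, quantile normalization, brighter probe sets only, 32 added before log2, no trend and each replicate number left out. Fits without single arrays or without 4 fat arrays, and one with marker means as covariates, were chosen after seeing the data.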

Additional observations from a re-analysis of the deposited data

Results flagged for a closer look

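In 4 of the 56 groups of 6 arrays examined (7 probe sets, 8 groups) the lowest array stood apart from the others by Dixon's criterion; chance gives about 1 in 20. CCNB1 was at 4.25 on replicate 1 of fasted D298 fat, against 62.1 to 70.9 on the other 5. RRM2 was at 30.6 on replicate 5 of fed N298 fat, against 81.5 to 131. It was also at 58.3 on replicate 6 of fasted N298 liver, against 90.5 to 109.6. The MCM2 probe set Ssc.1408.1.A1_at was at 3.56 on replicate 5 of fasted N298 liver, against 23.5 to 41.5.

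The fasting response of TOP2A differed between fat and liver by -1.21 (adjusted p = 0.0431 in limma), in a test that 16.1% of all probe sets passed. Of 15 alternatives only 5 kept this call, and the adjusted p reached 0.170 in limma.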

How the results depend on the processing

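TOP2A, CCNB1, BIRC5 and RRM2 fell in fat under each of 16 alternatives, with log2 fold changes of -2.12 to -1.56, -1.97 to -1.24, -1.02 to -0.66 and -2.06 to -1.07. By its brightest probe set MCM2 also fell in fat under each of the 16 (-0.61 to -0.41). Its call was kept under 15 and lost without the 4 arrays high in hepatocyte markers (-0.41, adjusted p = 0.0573 in limma). Brighter probe sets only could give no value for any member in fat, where all 7 lie below the median. Its probe set Ssc.21350.1.S1_at changed sign without replicate 2 (0.019) or 5 (0.10), in a range of -0.19 to 0.10. In liver the MCM2 call was lost under quantile normalization (-0.74), without N298 fed replicate 3 (-0.73) and in 5 of 6 fits without a number (range -1.01 to -0.62), and RRM2 passed without replicate 2 (range -1.04 to -0.63). The TOP2A tissue difference was lost with 32 added (-0.87), without trend (-1.21, adjusted p = 0.0524 in limma), without fasted D298 replicate 1 (-1.03), without the 4 arrays (-1.04) and in 5 of 6 fits without a number (range without 1 number or array -1.39 to -1.02), while that of CCNB1 passed median-centred (-1.21), under quantile normalization (-1.20) and without N298 fed replicate 3 (-1.24; range -1.31 to -0.74), as did that of RRM2 in the last (-1.21; range -1.21 to -0.83; -0.32 with 32 added). The cause of these changes was not tested; fits with fewer arrays also have fewer samples.

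Same-numbered arrays of different groups deviated together only slightly (median residual correlation 0.017 in fat and 0.0075 in liver, 36 pairs each). For differently numbered arrays the medians were -0.0064 and -0.0016 (180 pairs each). With the block as a random effect its correlation was 0.0399 in fat and 0.0106 in liver. A block effect was thus small by these values and was not tested. Within groups 18 of 24 liver arrays correlated best with their own number's fat array. Without the replicate block 5805 probe sets passed for fasting in fat (6048 with it), and 1082 in liver (1073 with it). Without the block, or with it as a random effect, 1 probe set passed for genotype in liver, and without replicate and gilt block the TOP2A tissue difference of -1.21 had an adjusted p of 0.0617 in limma. With residuals after the block 13 of 20 pairs correlated, against 9.

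Counts otherwise moved as follows: fasting in liver 667 to 978 without 1 number or array; genotype in liver 1 without N298 fed replicate 3 and 0 to 2 without 1 number; genotype by fasting in fat 5 without fed D298 replicate 1 and 0 to 4 without 1 number; fat against liver, brighter probe sets only, 9708 in fed (14948 with all probe sets) and 10008 in fasted gilts (15944). Of the 20 pairs 16 passed in fed arrays, 0 in fasted ones, 4 in fed arrays without the 2 extreme ones, 3 without the farthest 2, 2 to 13 without 1 number, 5 without fasted D298 replicate 1, 4 without fed D298 replicate 1 and 4 without the 4 arrays. Pairs that changed sign were RRM2 with MCM2 in fat (-0.43 in fasted arrays, -0.072 without replicate 1, -0.014 without fasted D298 replicate 1, -0.068 without fed D298 replicate 1, -0.15 without the 4 arrays; at most 0.14 without 1 number) and in liver (-0.045 in fasted arrays, -0.057 in fed arrays without the extreme 1, -0.22 without replicate 3, -0.043 without N298 fed replicate 3; at most 0.41 without 1 number), TOP2A with BIRC5 in fasted fat (-0.0050), TOP2A with MCM2 in fasted liver (-0.039) and BIRC5 with MCM2 in fed liver without N298 fed replicate 3 (-0.30). Median-centring moved the share of calls that were higher from 60.1% to 43.2% for fasting in fat, from 50.8% to 68.1% in liver, from 64.6% to 47.3% for fat against liver in fed and from 66.7% to 44.9% in fasted gilts, and from 54.9% to 28.0% for the difference of the responses; quantile normalization gave 54.6% and 53.2% for fat against liver in fed and fasted gilts. Of the 26 other division genes named in fat 18 kept their call under every alternative that gave a value, and of 6 in liver 1 did (RRM2B); none changed sign. Signals below the median probe set, where all 7 lie in fat, limit what fold changes can show, as background takes a larger share of a dim signal.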
